A study of Mus musculus with 2 samples.

Results

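The expression of 10 purinergic receptor genes was examined in mouse dorsal root ganglion (DRG) sensory neurons: the P2X genes P2rx2, P2rx3, P2rx4, P2rx5, P2rx6 and P2rx7, and the P2Y genes P2ry1, P2ry2, P2ry12 and P2ry14. The members were taken by gene symbol, and they make up 10 of the 24411 genes and 27 of the 35034 RefSeq transcripts in the files. The study sequenced 2 libraries, each from the pooled thoracic and lumbar DRG neurons of 10 male C57BL/6J mice of 6 to 8 weeks. Mice of both groups received 50% alum, an aluminium salt adjuvant, intraperitoneally on days 0 and 14, and the DRGs were collected 14 days after the second injection. The alum-injected group received alum only, and the alum + KLH-immunized group received it mixed with 100 µg of KLH (keyhole limpet hemocyanin), a foreign protein antigen from a mollusc. GEO's title for the control library calls it naïve and also alum alone, and it was treated as alum-injected because the methods sequence no untreated mice. Ganglia were dissociated with enzymes, neurons were enriched by centrifugation over albumin, and B lymphocytes were removed with beads, so the preparations still hold other ganglion cells. Each group is 1 library, so no difference between the groups has a replicate check or a test.

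P2 receptors are the cell surface receptors for extracellular nucleotides, which are released by damaged, stretched or active cells. P2X receptors are cation channels made of 3 subunits that open when they bind ATP, and P2Y receptors are G protein-coupled receptors that respond to ADP, ATP, UTP or UDP-sugars. In sensory ganglia the family is known for ATP-evoked pain, carried above all by P2X3 in non-peptidergic nociceptors, alone or together with P2X2. Satellite glia, Schwann cells and macrophages carry other members of the family.

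Expression was measured as TPM, a relative transcript abundance already divided by transcript length, so that levels of different genes can be set side by side. TPM was summed over the transcripts of a gene, and genes over 3 TPM, the study's own limit, count here as detected. The pan-neuronal markers checked the tissue, since all 9 of 9 were above 3 TPM in both libraries and the highest, Nefl, a neurofilament subunit, was at 5259 TPM in the alum-injected and 5048 TPM in the alum + KLH library. Of the 10 receptor genes, 8 were above 3 TPM in each library, and P2rx2 and P2ry14 were below it in both. The members summed to 436 TPM in the alum-injected library and 401 TPM in the alum + KLH library. P2rx3 alone made up 65.5% and 63.3% of that sum, and P2ry1 22.7% and 24.8%. The other 8 genes together reached 51.4 and 47.7 TPM. The order of the levels was P2rx3, P2ry1, P2rx4, P2rx7, P2ry12, P2rx6, P2ry2, P2rx5, P2rx2 and P2ry14. The values of P2ry2 and P2rx5 overlapped between the libraries, as did those of P2rx2 and P2ry14, so neither pair can be ordered. For the remaining 7 neighbouring pairs, the lower library of the higher gene was above both libraries of the next gene. This order holds for summed TPM in these 2 libraries only. Read on its transcript with the highest mean TPM, P2rx7 was at 5.56 and 7.28 TPM. That was below P2ry12, at 8.11 and 8.26 TPM, and in the alum-injected library also below P2rx6, at 7.62 TPM.

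**Figure D1:**
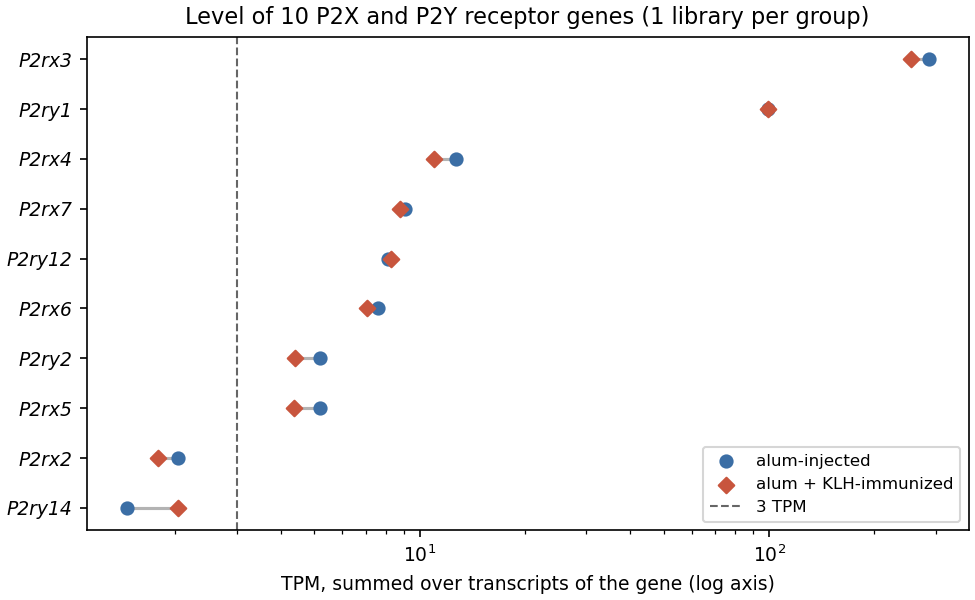
TPM of each receptor gene (log axis) in the alum-injected library (circles) and the alum + KLH library (diamonds), 1 library each, with the line at 3 TPM. P2rx3 and P2ry1 sit far to the right of the other 8 genes, and P2rx2 and P2ry14 lie left of the line in both libraries.

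P2rx3 (NM_145526, chr2:84998583-85037462 of GRCm38, minus strand, 12 exons) encodes the P2X3 subunit, which forms fast-desensitizing ATP-gated channels of nociceptors. Its level was 286 TPM in the alum-injected library and 254 TPM in the alum + KLH library, which placed it at rank 717 and 823 among the 24411 genes. The log2 ratio of alum + KLH over alum, computed with 1 TPM added to each value, was -0.17. The SD of this ratio over the 500 genes closest in level was 0.19, so the difference was smaller than the spread of genes of like abundance between the same 2 libraries. Markers of non-peptidergic nociceptors, the cells in which P2rx3 is best known, were lower as well. Of the 15 on the list, 14 were above 3 TPM, 12 of these were lower in the alum + KLH library, and the 15 summed to 1616 and 1483 TPM, none of them at 0. This was not particular to that list, since 56.4% of all genes above 3 TPM in at least 1 library were lower, as were 7 of 9 pan-neuronal, 7 of 7 detected satellite glia and 4 of 4 tyrosine hydroxylase neuron markers. Other lists were more even. Of 7 peptidergic nociceptor markers 4 were lower and 3 higher, and of 7 detected neurofilament neuron markers 3 were lower and 4 higher. Of 6 detected Schwann cell markers 3 were lower and 3 higher. The ratio of P2rx3 to Mrgprd, a receptor of these nociceptors, was 1.77 and 1.92, and that to Scn11a, which encodes the sodium channel Nav1.9, was 0.763 and 0.769. The ratio of P2rx3 to Snap25, a synaptic protein gene of all neurons, was 0.0704 and 0.0593. Snap25 itself was higher in the alum + KLH library, at 4057 and 4279 TPM, unlike 7 of the 9 pan-neuronal markers. The part of these markers in the P2rx3 value was not tested. In pooled tissue, fewer cells of a type and less RNA per cell cannot be told apart.

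P2rx2 (chr5:110339812-110343212, minus strand) encodes P2X2, a slowly desensitizing subunit that joins with P2X3. P2rx2 measured 2.04 TPM in the alum-injected library and 1.79 TPM in the alum + KLH library, below the detection threshold in both. P2rx3 therefore exceeded its partner 140-fold and 142-fold, a ratio that becomes 488 and 338 when P2rx2 is read only on NM_153400, its transcript with the highest mean over both libraries. About 50.4% and 51.0% of all genes had a higher value than P2rx2.

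Subunits with such different levels could exchange reads if their sequences were alike, so the coding sequences of the 6 P2X genes were aligned, each on the transcript with the highest mean TPM. P2rx2 and P2rx3 were identical at 55.4% of aligned bases, and the 15 P2X pairs ranged from 49.5% for P2rx2 and P2rx7 to 60.3% for P2rx4 and P2rx5. No stretch of 31 bases, the default matching length of the quantification software, was shared by any of the 45 pairs of members. The most conserved 60-base stretch without a gap lies across the junction of exons 9 and 10 in all 6 genes, and 29 of its bases are identical in the 6. For P2rx3 it spans coding bases 899 to 958 (chr2:85000368-85000694, minus strand, with an intron between). It is shown to make visible how far the subunits differ even at their most alike point, with capitals for the bases that all 6 share.
P2rx2: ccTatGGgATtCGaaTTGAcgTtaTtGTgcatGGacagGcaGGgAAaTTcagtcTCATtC
P2rx3: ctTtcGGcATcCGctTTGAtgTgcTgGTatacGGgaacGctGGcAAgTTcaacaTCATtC
P2rx4: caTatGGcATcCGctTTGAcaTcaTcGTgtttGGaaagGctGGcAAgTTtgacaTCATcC
P2rx5: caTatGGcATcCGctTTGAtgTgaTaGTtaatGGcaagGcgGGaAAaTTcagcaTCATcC
P2rx6: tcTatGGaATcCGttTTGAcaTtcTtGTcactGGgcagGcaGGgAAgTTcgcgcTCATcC
P2rx7: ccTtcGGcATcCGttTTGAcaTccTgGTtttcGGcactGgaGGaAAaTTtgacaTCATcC

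P2rx2 is split into 3 transcripts in the files, and none of them led in both libraries. NM_001164834 was the highest in the alum-injected library, at 1.08 TPM, but was at 0.147 TPM in the alum + KLH library. NM_001164833 went from 0.376 to 0.892 TPM and NM_153400 from 0.585 to 0.750 TPM. The 3 share exons 2 to 10 and the first part of exon 11, where NM_153400 reads on and the others splice to different starts of a last exon. The sequences after this point, in capitals and preceded by 18 shared bases, show how each of the 3 continues. All lie in the coding part on the minus strand of chromosome 5 (capitals at chr5:110340463-110340504, chr5:110340256-110340297 and chr5:110340196-110340234 in the order printed).
NM_153400: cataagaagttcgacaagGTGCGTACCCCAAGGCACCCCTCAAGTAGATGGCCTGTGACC
NM_001164833: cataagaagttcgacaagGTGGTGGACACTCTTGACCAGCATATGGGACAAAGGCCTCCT
NM_001164834: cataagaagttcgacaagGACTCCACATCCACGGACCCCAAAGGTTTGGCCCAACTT
Only 25 of the 1602 31-base stretches of NM_001164833 and 27 of the 1539 of NM_001164834 occur in no other listed P2rx2 transcript. NM_153400 has 489 of 2066, so few positions set the first pair apart and more set NM_153400 apart from both.

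P2rx4 and P2rx7 lie next to each other on chromosome 5, on the plus strand and 16.1 kb apart. P2X4 is a widely expressed subunit found at the surface and in lysosomes, and P2X7 is a channel that needs high ATP and is known for driving interleukin-1β release from macrophages. P2rx4 (NM_011026, chr5:122707544-122729738, 12 exons) measured 12.7 TPM in the alum-injected and 10.98 TPM in the alum + KLH library. Its log2 ratio was -0.20 beside an SD of 0.23 among genes of like level. P2rx7 (chr5:122643911-122691432) was at 9.07 and 8.79 TPM, a log2 ratio of -0.04 beside an SD of 0.26.

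The even P2rx7 total was made of transcripts that differed between the libraries. NM_011027, the longest transcript with 4936 bases, was at 2.48 TPM in the alum-injected library and 0.0155 TPM in the alum + KLH library. NM_001284402, which begins in an exon of its own, was at 5.56 and 7.28 TPM and carried 61.2% and 82.9% of the P2rx7 TPM. NM_001038887, a short transcript of 4 exons, was at 0.576 and 1.18 TPM, and the other 2 stayed below 0.3 TPM. The log2 ratio was -1.78 for NM_011027, beside an SD of 0.65 among the 500 transcripts of like level, and 0.34 for NM_001284402, beside 0.47. Among all transcripts above 1 TPM in at least 1 library that belong to genes with several transcripts, 10.7% were at least 2-fold apart and 34.9% differed by a log2 ratio of 0.32 or more. Of the 9 member transcripts of that kind, 1, NM_011027, passed the first limit and 5 passed the second. The count of 1 is near the share over all these transcripts and is not a result about the members. The 5 were NM_011027, NM_001284402 and NM_001038887 of P2rx7, NM_001164834 of P2rx2 and NM_001287120 of P2ry14. Rows of 1 gene divide its reads, so they are not separate cases. NM_001287120 shares its structure with other P2ry14 rows, and together these were at 1.22 and 1.24 TPM.

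NM_011027 and NM_001284402 share exons 2 to 12 and differ at both ends. At the front, they begin in different first exons, which gives the protein another start. Only NM_001284402 has a first exon of its own. The first exons of NM_001038839, NM_001038845 and NM_001038887 overlap that of NM_011027. Of these, NM_001038839 and NM_001038887 were higher in the alum + KLH library and NM_001038845 was lower. The coding part of each first exon is shown in capitals, followed by the first 21 bases of the shared exon 2. It lies at chr5:122644074-122644198 for NM_011027 and at chr5:122650424-122650539 for NM_001284402, on the plus strand.
NM_011027: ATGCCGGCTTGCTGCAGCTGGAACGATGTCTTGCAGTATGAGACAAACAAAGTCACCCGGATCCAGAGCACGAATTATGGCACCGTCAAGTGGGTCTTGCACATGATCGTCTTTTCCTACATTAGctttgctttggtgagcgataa
NM_001284402: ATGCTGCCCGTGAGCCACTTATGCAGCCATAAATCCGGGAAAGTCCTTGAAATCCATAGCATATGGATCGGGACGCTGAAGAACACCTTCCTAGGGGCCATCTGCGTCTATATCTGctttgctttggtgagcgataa
At the back, the last exon of NM_011027 has 3483 bases and that of NM_001284402 has 567, so that the longer transcript reaches 2916 bases further. NM_001284402 has 115 stretches of 31 bases found in no other listed P2rx7 transcript, and NM_011027 has 1831. TPM does not record how many reads lay on these, so the shift was not traced to either end.

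**Figure D2:**
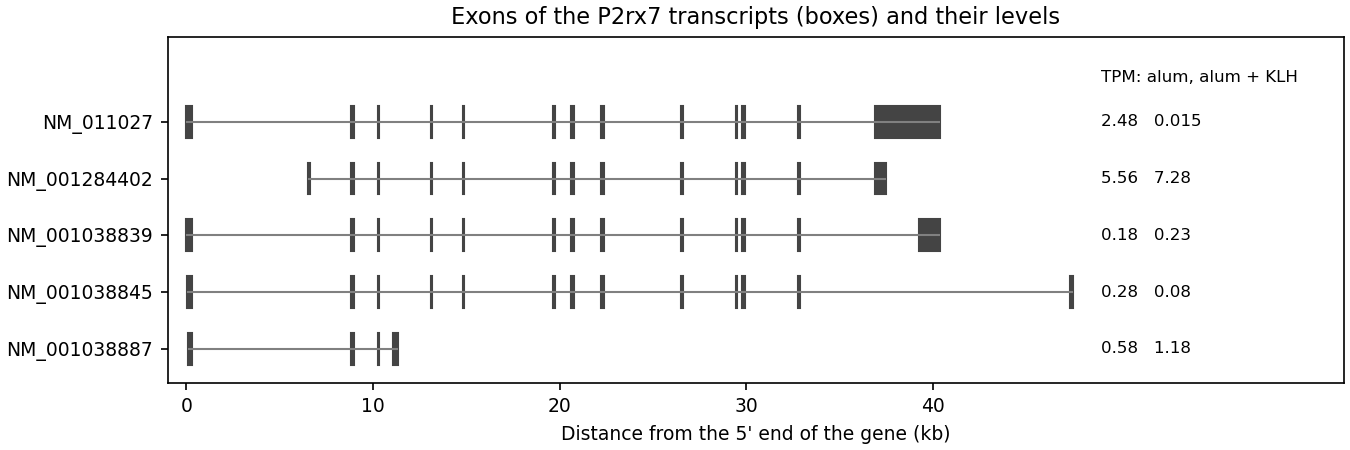
Exons (boxes, to scale) of the 5 P2rx7 transcripts in the files against the distance in kb from the 5′ end of the gene, with the TPM of each in the alum-injected and alum + KLH library at the right. NM_001284402 has its own first exon and a short last exon, and NM_011027 a long last exon.

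Because a long transcript collects more reads per TPM, the P2rx7 total depends on this division. When TPM was multiplied by transcript length before summing, which makes the value proportional to reads, the alum + KLH library reached 0.632 of the alum-injected library, a log2 ratio of -0.59 with 1 TPM added. By the same measure 1.45% of 11331 genes were at least 1.5-fold lower in the alum + KLH library. For 1.13% of these genes the length-weighted and the plain ratio lay as far apart as for P2rx7. With it P2rx7 became the 1 member of the 8 detected whose log2 ratio passed 0.32 in size, beside 7.64% of these genes. The member that moved next most among those detected was P2ry2, from -0.20 to -0.26. This weighting was chosen after the values had been seen.

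P2rx5 and P2rx6 encode the less studied P2X subunits, of which P2X6 hardly forms channels on its own. P2rx5 (NM_033321, chr11:73160421-73172685, plus strand, 13 exons) measured 5.18 TPM after alum and 4.37 TPM after alum + KLH. Its log2 ratio of -0.20 compared with an SD of 0.23. P2rx6 (chr16:17561885-17577800, plus strand) was at 7.62 and 7.06 TPM, a log2 ratio of -0.10 beside an SD of 0.52. Slc7a4 overlaps P2rx6 on the opposite strand by 5783 bases and was at 1.53 and 1.16 TPM. Almost all P2rx6 signal was on NM_011028, the listed transcript that keeps exon 6. NM_011028 was at 7.62 and 6.98 TPM, while NM_001159561, which skips the exon, was at 0 and 0.0792 TPM. NM_011028 has 2345 bases and NM_001159561 has 1353, a wider gap than the 81 bases of exon 6, so they also differ elsewhere. The division of TPM between them was not traced to exon 6. The exon has 81 bases (chr16:17567873-17567953) and is shown in capitals with 20 bases on each side, above the joined sequence of the transcript without it.
NM_011028: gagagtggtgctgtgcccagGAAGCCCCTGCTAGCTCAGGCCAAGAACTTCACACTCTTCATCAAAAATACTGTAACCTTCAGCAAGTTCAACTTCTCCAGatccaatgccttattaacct
NM_001159561: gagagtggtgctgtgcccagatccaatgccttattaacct

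P2ry1 was the leading P2Y gene. It encodes P2Y1, a Gq-coupled receptor for ADP. P2ry1 (chr3:61002795-61008982, plus strand) was at 99.2 TPM in the alum-injected library and 99.3 TPM in the alum + KLH library, and 8.89% and 8.83% of genes had a higher value. Its log2 ratio was 0.00 beside an SD of 0.14. P2rx3 was 2.88 times as high as P2ry1 in the alum-injected library and 2.56 times in the alum + KLH library. NM_008772 carried 90.5% and 91.4% of the P2ry1 TPM. The second transcript, NM_001282016, has the same coding length of 1119 bases and was at 9.43 and 8.58 TPM. An antisense gene with no row in the files overlaps P2ry1 by 992 bases, and reads of both would be alike where strand is not used. Of the 3854 31-base stretches of NM_008772, 974 or 25.3% occur in other genes when orientation is ignored and 12 when only the sense orientation is counted.

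P2ry2 (chr7:100996568-101012866, minus strand) encodes P2Y2, a Gq-coupled receptor for ATP and UTP. It was at 5.197 and 4.39 TPM in the alum-injected and the alum + KLH library, a log2 ratio of -0.20 beside an SD of 0.23. P2ry1 was 19.1 and 22.6 times as high in the same libraries. Only 2 of its 3 transcripts were lower in the alum + KLH library. NM_001302346 was at 0.675 and 1.02e-06 TPM and NM_008773 at 0.405 and 0 TPM. NM_001302347, whose 2 exons leave out the middle exon of the others, was at 4.12 and 4.39 TPM, so that P2ry2 read on its highest transcript was higher in the alum + KLH library, with a log2 ratio of 0.08.

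P2ry12 and P2ry14 encode Gi-coupled receptors, P2Y12 for ADP and P2Y14 for UDP-glucose and related sugars. P2Y12 is best known from platelets and microglia. P2ry12 (NM_027571, chr3:59216272-59262871, minus strand) was at 8.11 TPM in the alum-injected library and 8.26 TPM in the alum + KLH library, a log2 ratio of 0.02 beside an SD of 0.52. It was higher than each of the 14 macrophage markers in both libraries. Only Cd14 and Lyz2 of that list were above 3 TPM, its highest value was 3.93 TPM, and its 14 genes summed to 16.4 and 15.7 TPM. Among the rest of that list Cx3cr1 was the highest, at 2.08 and 1.66 TPM. Csf1r was at 0.113 and 0.167 TPM. Of the 8 satellite glia markers 7 were above 3 TPM, and the 8 summed to 1790 and 1666 TPM, with Fabp7 the highest at 953 and 888 TPM. The 8 Schwann cell markers summed to 1887 and 1858 TPM, and the 9 pan-neuronal markers to 16914 and 16735 TPM. Which cells held the P2ry12 RNA was not tested. P2ry14 (chr3:59113855-59153618, minus strand) was at 1.45 and 2.03 TPM, below the threshold in both libraries. Its log2 ratio of 0.31 compared with an SD of 0.92. The 8 P2ry14 rows correspond to only 4 annotated transcripts, and NM_001287120 carried 84.1% of the TPM in the alum-injected library but 34.9% in the alum + KLH library. It shares its annotated transcript with NM_001008497 and NM_133200, and the 3 rows together were at 1.22 and 1.24 TPM, or 84.1% and 61.0% of the gene. P2ry12 and P2ry14 both lie inside the span of Med12l on the other strand, which was at 24.5 and 23.6 TPM, and neither shares a 31-base stretch with another gene.

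The coding sequences of the 4 P2Y genes were identical at between 39.3% of aligned bases, for P2ry2 and P2ry12, and 53.5%, for P2ry12 and P2ry14. The most conserved 60-base stretch of the alignment has 24 bases common to all 4, in capitals. It lies at chr3:61003832-61003891 for P2ry1 on the plus strand and at chr3:59217866-59217925 for P2ry12 on the minus strand, in both cases within a single exon.
P2ry1: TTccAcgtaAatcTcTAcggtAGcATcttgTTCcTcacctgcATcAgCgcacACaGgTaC
P2ry2: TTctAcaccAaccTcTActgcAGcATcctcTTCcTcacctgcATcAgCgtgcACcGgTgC
P2ry12: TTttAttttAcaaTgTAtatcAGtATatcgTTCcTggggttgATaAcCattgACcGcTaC
P2ry14: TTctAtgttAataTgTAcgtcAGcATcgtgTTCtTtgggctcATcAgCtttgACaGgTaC

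**Figure D3:**
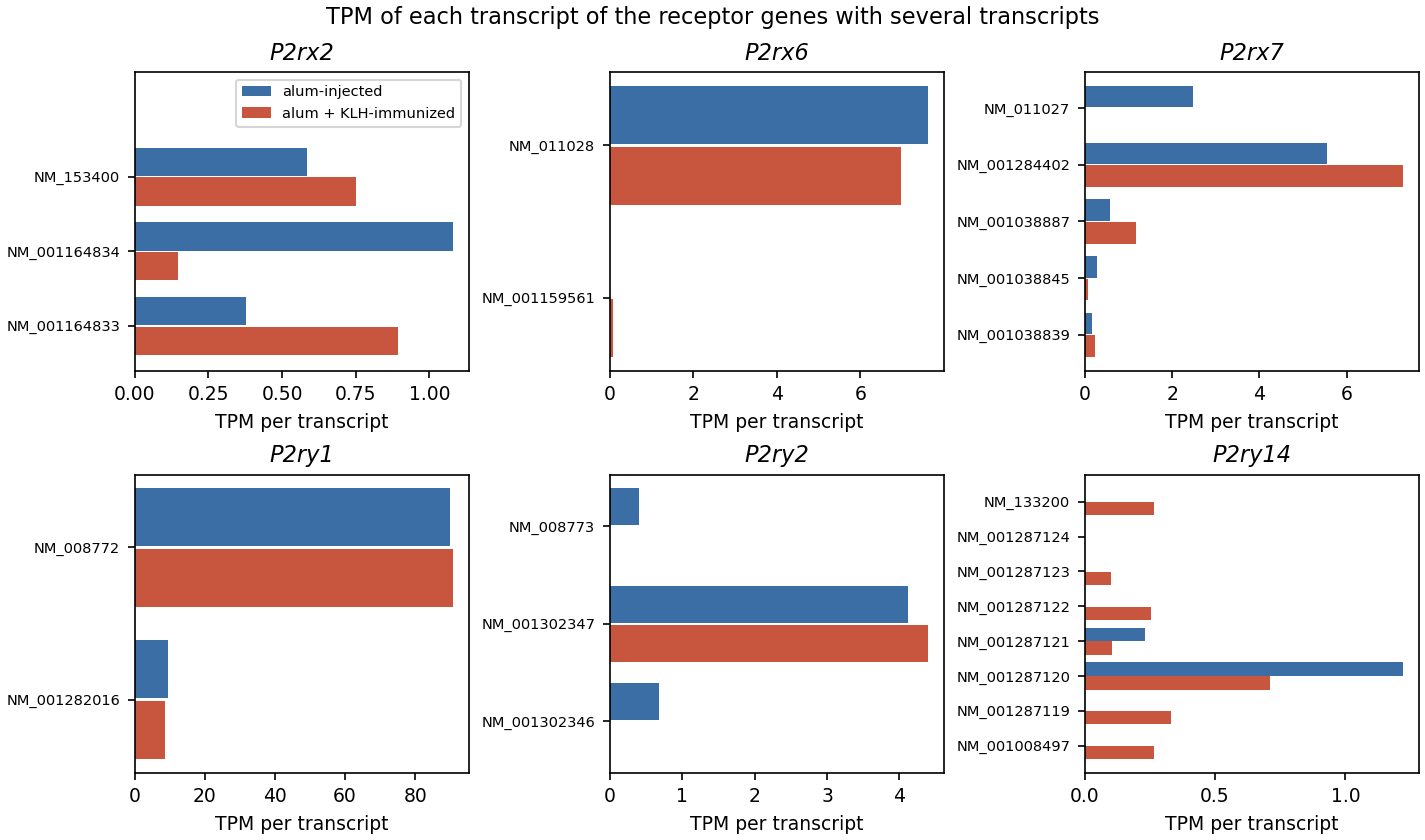
TPM per transcript in the alum-injected (blue) and alum + KLH library (red) for the 6 receptor genes with several transcripts, 1 library each and each panel with its own axis from 0. P2rx6, P2ry1 and P2ry2 keep the same leading transcript at a similar level, and P2rx7 and P2ry14 keep theirs at levels further apart. The leading transcript of P2rx2 changes, with no P2rx2 bar above 1.08 TPM. NM_011027 of P2rx7 is nearly absent in the alum + KLH library.

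The comparison of alum + KLH with alum describes 1 pooled library per group, 14 days after the booster. Immunization and other differences between the 2 pools cannot be told apart. The paper states that its sequencing was not mainly meant for a statistical comparison of these groups. A log2 ratio of 0.32 or more in size was found for 0 of the 8 detected members, and for 7.68% of the 11648 genes above 3 TPM in at least 1 library (5.39% lower and 2.29% higher in the alum + KLH library). With so low a background share, 0 of 8 is not a result about the receptors. The median log2 ratio of the 8 was -0.13, against -0.02 over the 11648 genes. Of the 8 members 6 were lower in the alum + KLH library, as were 56.4% of all these genes. The 5 detected P2X genes were all lower, by 11.2% for P2rx3, 13.6% for P2rx4, 15.5% for P2rx5, 7.32% for P2rx6 and 3.19% for P2rx7. P2rx2, below the threshold, was lower by 12.3%. Each of the 10 ratios was smaller than the SD of the genes nearest in level. That SD did not run evenly with level, so it is a rough measure. It was 0.23 for P2rx5, 0.52 for P2rx6 and P2ry12, and 0.26 for P2rx7, in rising order of mean TPM. Read only on the transcript with the highest mean over both libraries, P2rx2 (NM_153400, which led in neither library), P2rx7 and P2ry2 turned to higher values in the alum + KLH library and P2ry14 (NM_001287120, 1 of 3 rows with the same structure) to a lower one, and relative to Hprt the near-zero ratios of P2ry1 and P2ry12 became negative.

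**Figure D4:**
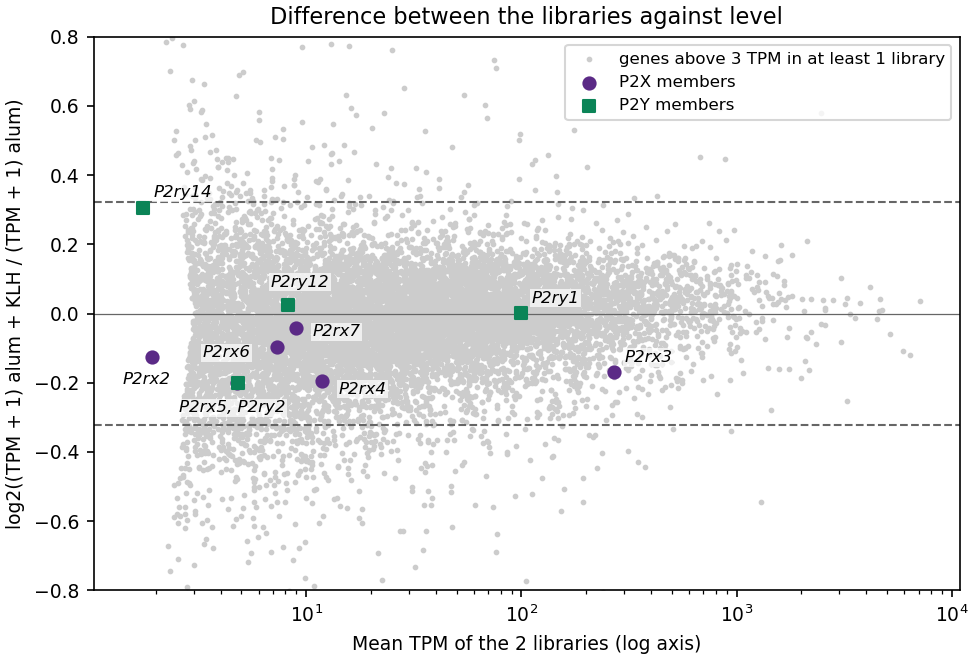
log2 ratio of alum + KLH over alum, with 1 TPM added, against mean TPM (log axis) for the genes above 3 TPM in at least 1 library (grey) and the 10 receptor genes, with dashed lines at 0.32 to either side of 0. The receptors lie between the lines, the P2X genes a little below 0, and 224 grey genes fall outside the plotted range of 0.8 to either side.

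The levels of other genes that release, break down or sense extracellular nucleotides were read from a list of 30 genes, of which 29 have a row in the files and 11 were above 3 TPM in both libraries. Acpp, which encodes prostatic acid phosphatase, an enzyme of nociceptors that turns AMP into adenosine, was the highest at 658 TPM in the alum-injected library and 594 TPM in the alum + KLH library. It was 2.30 and 2.34 times as high as P2rx3. Nt5e, which encodes CD73 and makes adenosine from AMP, was at 101 and 95.3 TPM. Entpd3, which encodes a nucleotidase that removes phosphate from ATP and ADP, was at 74.2 and 70.2 TPM, and Entpd1, or CD39, at 12.6 and 12.8 TPM. Enpp2, which encodes autotaxin, was at 29.5 and 29.8 TPM and the related Enpp1 at 7.35 and 7.29 TPM. Entpd1, Entpd3, Nt5e and Acpp encode enzymes of the steps from ATP to adenosine, whereas autotaxin is best known for making lysophosphatidic acid.

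Of the 4 adenosine receptors, Adora1, the Gi-coupled A1 receptor, was at 34.9 and 30.3 TPM and Adora2b, the Gs-coupled A2B receptor, at 8.40 and 8.62 TPM, while Adora2a and Adora3 were below 3 TPM. Among release and transport genes, Panx1, which encodes a channel that lets ATP out of cells, was at 74.5 and 76.8 TPM. Panx2 was at 6.15 and 4.67 TPM and Slc29a1, a nucleoside transporter, at 7.44 and 5.80 TPM. The further P2 receptors P2rx1, P2ry4, P2ry6, P2ry10 and P2ry13 were all below 1 TPM, with P2rx1 listed at 0 in both libraries. Of the 11 genes 7 were lower in the alum + KLH library and 4 higher, with a median log2 ratio of -0.08. Among all genes above 3 TPM in at least 1 library 56.4% were lower. Panx2 was the only 1 of the 11 past 0.32 in size, beside 7.68% of all these genes, with a log2 ratio of -0.33 beside an SD of 0.23 among genes of like level.

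**Figure D5:**
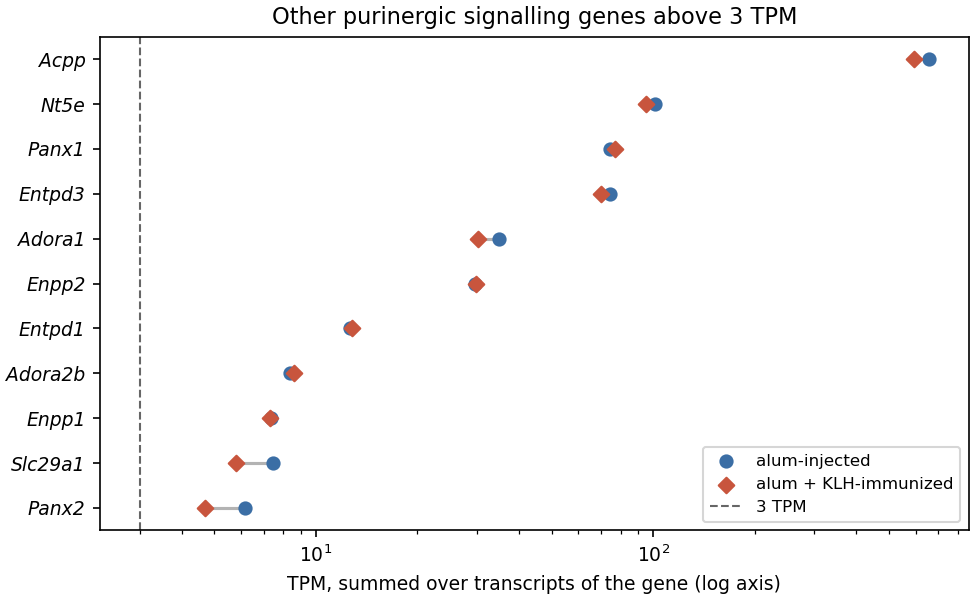
TPM (log axis) of the 11 other purinergic signalling genes above 3 TPM in the alum-injected (circles) and alum + KLH library (diamonds), 1 library each. Acpp lies far to the right, and Panx2 and Slc29a1 show the widest gaps.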

How the data were processed

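Poly(A)-selected, stranded, paired-end libraries were made from 1 RNA pool per group. Per the labels and the methods, the authors used bcl2fastq, cutadapt and kallisto with an mm10 RefSeq transcriptome, without a search for new transcripts. Their versions and the use of strand are not given in the sources used here. The deposited values are TPM per transcript and sum to 1000000 per library. The methods state a minimum read depth per sample, but TPM keeps no read numbers per transcript, so no interval was computed, and the division of reads among transcripts could not be repeated.

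TPM was summed per gene. Ratios were log2((TPM + 1) alum + KLH / (TPM + 1) alum), set beside the SD over the 500 genes (or transcripts) nearest in mean log2(TPM + 1). This describes 2 libraries and tests nothing. All 27 member transcripts were matched to GENCODE M21 (GRCm38, the assembly of mm10), from which sequences, lengths and 31-base stretches were read. Coding sequences without stop codons were aligned with mafft 7.526. A planned protein comparison was replaced by this alignment, since no protein sequences were used here. Python 3.11.15, numpy 2.4.6, pandas 2.3.3 and matplotlib 3.10.9 were used. The calculation was also run on simulated data with planted changes larger than the limits used here. It had less noise and only genes at higher levels than most members, so it does not check the calls reported here. The members, lists and thresholds were chosen with earlier results of these data known. The rule for named genes took all members, the purinergic list genes above 3 TPM in at least 1 library, and, of the marker lists described at length, the gene with the highest mean and those set beside a member. Other genes were named after their values were seen. Alternatives were pseudocounts, thresholds, the transcript with the highest mean TPM of both libraries, rescaling and Hprt, with length weighting added later.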

Additional observations from a re-analysis of the deposited data

How the results depend on the processing

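With 1 library per group no replicate could be left out. No paired analysis was possible because each group holds 1 library. The counts of 8 detected members per library became 10 and 10 at 1 TPM, and 3 and 3 at 10 TPM. The count with a log2 ratio of 0.32 or more in size rose from 0 to 1, P2rx7. This was so with length weighting (lower in alum + KLH) and on the transcript with the highest mean TPM of the libraries (higher). On that transcript the share of P2rx3 in the alum-injected library was 67.9%, and its ratio to P2rx2, read on NM_153400, was 488 in the alum-injected and 338 in the alum + KLH library. Of 60 single-gene ratios under alternatives, 3 moved by the SD of their neighbours or more, namely P2rx7 (0.34 on that transcript, -0.59 length-weighted) and P2ry2 (0.08 on that transcript), and 7 changed sign. The causes were not tested. The median log2 ratio ran from -0.21 to -0.05 for the receptors and from -0.16 to -0.01 for the other purinergic genes under the alternatives run. TPM gives no read numbers, so the counting error of the values under 3 TPM could not be stated.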

Other observations

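Several receptor genes sit beside relatives with other levels. P2ry6, which encodes a receptor for UDP, lies 21.9 kb from P2ry2 on the same strand of chromosome 7 and was at 0.102 TPM in the alum-injected library and 0.0876 TPM in the alum + KLH library, against 5.197 and 4.39 TPM for P2ry2. P2ry13, an ADP receptor, lies 5.39 kb from P2ry12 on the same strand of chromosome 3 and was at 0 and 0.109 TPM, against 8.11 and 8.26 TPM for P2ry12. P2rx1 lies 145 kb from P2rx5 on chromosome 11 and was listed at 0 in both libraries, against 5.18 and 4.37 TPM. By contrast, the neighbours P2rx7 and P2rx4 were both detected, with values of 9.07 and 12.7 TPM in the alum-injected library. These are descriptions of 2 libraries, with no test.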
